A study of Oryctolagus cuniculus with 34 samples.

Results

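The comparison described here set gel-treated rabbit supraspinatus muscle of the long term against gel-treated muscle of the short term, 5 libraries against 5, or 10 of the 34 bulk RNA-seq libraries of the study. Muscles of both groups had been injured, repaired and treated with a gel of extracellular matrix derived from tissue. The supraspinatus lifts the arm or foreleg and belongs to the rotator cuff. The members were chosen by their labels alone: matrix gel treated, long term 1 to 5, and matrix gel treated, short term 1 to 5. The other libraries were 5 short-term and 5 long-term muscles with repair only, 4 short-term muscles with injury only and 10 uninjured long-term muscles. The labels give neither the length of the terms nor the rabbits' strain, age or genotype. Nor do they say that each library is a different rabbit, so p-values measure the spread between libraries, which may in part be technical.

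A muscle that is cut from its tendon and repaired first fills with inflammatory cells, dividing cells and fibroblasts that lay down a provisional matrix. Later, as fibres mature, embryonic forms of contractile proteins and of the acetylcholine receptor give way to adult forms, and oxidative metabolism is rebuilt. Fibro-adipogenic progenitors, stromal cells that lie between the fibres, are a main source of both scar collagen and muscle fat.

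The deposited values were raw counts, with 27623483 to 31832677 counts in a short-term and 12719599 to 15033385 in a long-term gel library. Genes of the cytosolic ribosome (names in RPL or RPS with a digit) and TPT1, 75 genes in all, were left out before scaling, since they held 2.24% to 3.81% of the counts of the short-term and 0.281% to 0.462% of the long-term gel libraries. Their share showed the same gap in all other groups, 1.83% to 3.81% over the 14 short-term and 0.277% to 0.479% over the 20 long-term libraries. Term, depth and any difference in processing between the terms cannot be told apart in these data. Levels are given in CPM, a gene's counts relative to its library's total count, with TMM factors set over all 34 libraries. Muscle fibre markers summed to 76000 to 158000 CPM in the short-term and 110000 to 224000 CPM in the long-term gel libraries, so the labelled tissue was present in each. In bulk tissue, fewer cells of a type and less RNA per cell cannot be told apart.

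The first principal component held 59% of the variance and separated the terms, with the short-term libraries between -99.1 and -41.5 and the long-term libraries between 53.3 and 69.3. The second held 17.7% and set long-term library 1, at 101, apart from the other 9, which lay between -29.3 and 3.4. Correlations of log2 CPM ran from 0.973 to 0.986 among the other 4 long-term libraries and from 0.906 to 0.914 between library 1 and these. In library 1, 1703 of 12189 genes were at least 2-fold above and 2855 at least 2-fold below the mean of the other 4. Results are therefore also given without it, and a single-gene value that moved by over 1.5 times when any 1 library was left out is given with that library. Among the short-term libraries, number 3 lay farthest out on the first component.

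**Figure D1:**
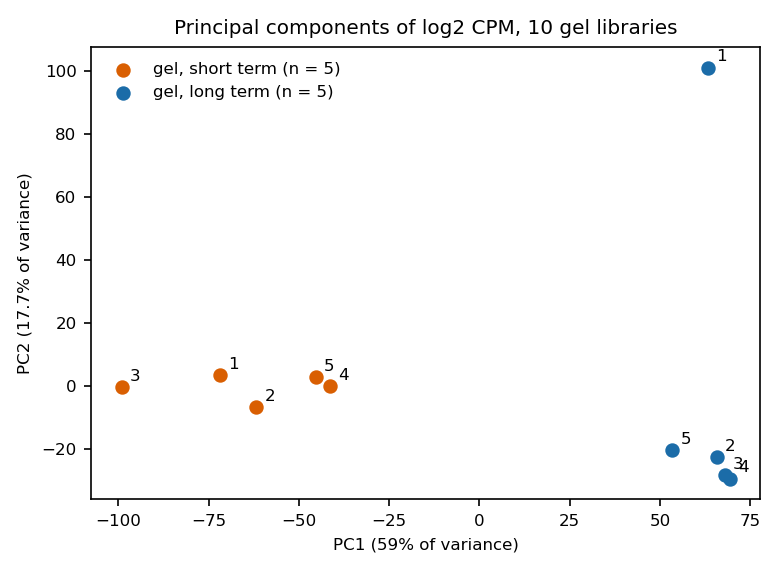
Principal components of log2 CPM for the 10 gel libraries. Each point is 1 library with its replicate number, orange for short term and blue for long term, and the axes give the share of variance, 59% and 17.7%. The terms separate on the first axis, and long-term library 1 lies alone on the second.

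Of 12189 genes tested, 2011 (16.5%) were higher and 2854 (23.4%) were lower in the long term at an adjusted p under 0.05, together 39.9% of the genes. Among these, 2131 genes fell and 953 rose by at least 2-fold. The median log2 difference over all genes was -0.067, which serves as the reference for the list medians below. Without long-term library 1, 3131 of 12743 genes (24.6%) were higher and 3893 (30.6%) lower, together 55.1%, and 4761 of the 4865 calls were kept with their direction (97.9%). List counts below are to be read against the shares over all genes, in the fit with or without that library. The CPM ranges of the 2 groups did not overlap, with the long term higher, for 11.6% of the genes, and did not overlap, with the long term lower, for 16.7%.

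Some of the largest differences ran between all short-term and all long-term libraries of the study, whatever the treatment, uninjured muscle included. Over the 12189 genes, all 20 long-term libraries lay above all 14 short-term ones for 1.63% and below them for 2.63%, and such genes made up 10.6% of the calls. NPM1, a nucleolar chaperone, stood at 120, 124, 241, 126 and 36 CPM in the short-term gel libraries 1 to 5 and at 0.212, 0.22, 0.499, 0.554 and 0.245 CPM in the long-term ones, a log2 difference of -8.53 (SE 0.571, adjusted p = 3.41e-06). It stood at 112 to 143 CPM in the injury-only short-term libraries and at 0.224 to 0.834 CPM in uninjured long-term muscle. The elongation factor EEF1A1 (-6.78), the tubulin gene TUBA1B (-7.61) and the glycolytic enzyme gene PGK1 (-7.52) showed the same step. The value was -6.20 for EEF1A1 without short-term library 3 and -8.24 for TUBA1B without long-term library 1. All 4 belong to families with many near-identical copies, between which reads can be split, so their values are uncertain.

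The list of translation factors and other ribosome-linked genes, which includes NPM1 and EEF1A1, had 11 of 18 members lower, 7 of them with all long-term libraries below all short-term ones. The count was 15 without long-term library 1. Genes with no counts in 1 of the 2 gel groups ran both ways. Of 19 such genes 11 were at 0 in the short-term gel libraries, 10 of them in all 14 short-term libraries, and 8 were at 0 in the long-term gel libraries, 2 of them in all 20 long-term libraries. The splicing factor gene U2AF2, the mitochondrial RNA polymerase gene POLRMT, the mitochondrial ribosomal gene MRPS2 and the selenoprotein gene SEPW1 had 0 counts in all 14 short-term libraries. They had 627, 1434, 1066 and 1359 counts over the 20 long-term libraries. These 4 genes were singled out after their values were seen. What part processing had in such steps was not tested, and changes of genes that split all 34 libraries by term are named as such below.

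**Figure D2:**
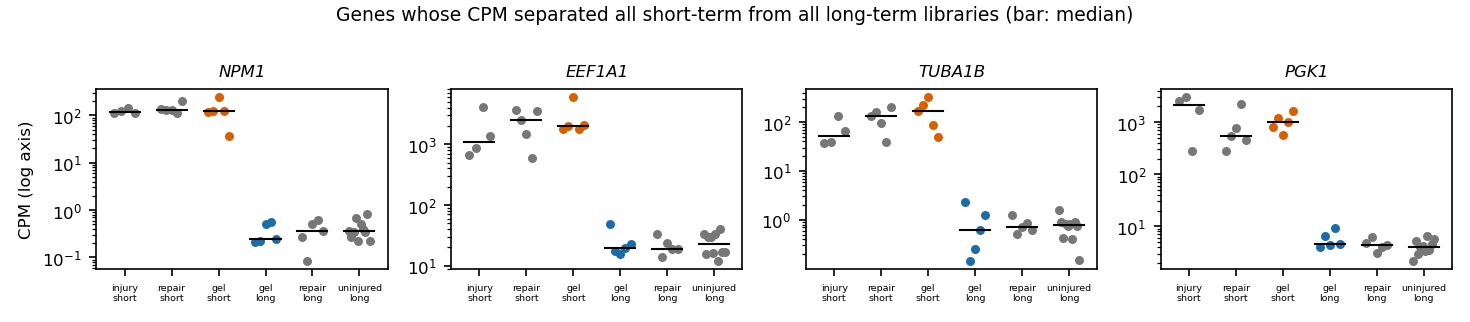
CPM (log axis) of NPM1, EEF1A1, TUBA1B and PGK1 in each of the 34 libraries by group, 1 point per library with the group median as a bar. Short-term and long-term libraries do not overlap for any of the 4 genes, in injury-only, repair-only, gel-treated or uninjured muscle.

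Genes of the scar matrix fell together. All 12 fibrillar and fibril-associated collagens tested were lower in the long term, with a median log2 difference of -2.30, and all 12 stayed lower in each of the 10 fits that left out 1 library. COL1A1, a chain of type I collagen, stood at 2460, 1450, 2530, 605 and 705 CPM in the short-term libraries and at 221, 157, 108, 164 and 115 CPM in the long-term ones. The groups did not overlap, and the fitted log2 difference was -3.36 (SE 0.448, adjusted p = 0.000198). COL3A1, type III collagen of early scar, fell by 2.80, COL1A2 by 3.68 and COL12A1 by 3.21 on the log2 scale. COL11A1, which is on the list of tenocyte markers too, fell by 4.77, or 5.38 without long-term library 3. The 12 collagens summed to 4210 to 11400 CPM in the short-term and 878 to 1290 CPM in the long-term gel libraries, and to 459 to 1730 CPM in uninjured muscle.

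The enzymes that fold and cross-link collagen moved the same way: 13 of 15 were lower and 0 were higher, with a median of -1.49. LOX and LOXL1, which cross-link collagen, fell by 2.72 and 3.17 on the log2 scale, and PLOD2, a collagen lysyl hydroxylase, by 2.23. Matricellular and provisional matrix genes were lower in 16 of 16 cases (median -1.95), among them FN1, fibronectin (-2.70), and FBN2, an early fibrillin (-6.29). POSTN, periostin, which is made by activated fibroblasts, stood at 130, 193, 414, 85.8 and 50 CPM in the short-term and at 4.78, 6.16, 7.07, 7.28 and 14 CPM in the long-term libraries. All 5 long-term values lay below the lowest short-term one, and the log2 difference was -4.49 (SE 0.564, adjusted p = 0.000148), or -3.83 without short-term library 3.

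Small leucine-rich proteoglycans, which bind collagen fibrils, had 6 of 11 members lower. Biglycan, BGN (-4.35), lumican, LUM (-3.51), and asporin, ASPN (-3.29), fell, while decorin, DCN, the abundant proteoglycan of resting muscle, had a log2 difference of -0.40 (SE 0.303, adjusted p = 0.311). DCN stood at 343, 314, 581, 478 and 569 CPM in the short-term libraries. In the long term it stood at 144 CPM in library 1 and at 372 to 443 CPM in the other 4, within the short-term range. Matrix proteases and their inhibitors were lower in 16 of 19 cases tested (median -1.73, and -1.91 over the same members without long-term library 1). Over the members tested without any 1 long-term library, the median was -2.31 to -2.13. All 23 members in the files summed to 700 to 1510 CPM in the short-term and 383 to 553 CPM in the long-term gel libraries. PLAUR, the urokinase receptor, fell by 6.08 (-5.49 without short-term library 1, -6.68 without long-term library 3) and ADAM12, a protease of regenerating muscle, by 4.67. Of 12 basement membrane genes 8 were lower and 0 higher (median -0.94), and the laminin gene LAMB1 fell by 1.34.

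Markers of the stromal cells that make this matrix were lower too. Of 14 markers of fibro-adipogenic progenitors and fibroblasts, 9 were lower and 0 higher, with a median of -1.04, and 10 lower and 1 higher without long-term library 1. PDGFRA, the receptor that marks these progenitors, stood at 28.4, 25.2, 56.4, 42.6 and 38.2 CPM in the short-term and at 11.9, 19.7, 20.7, 19.7 and 17.2 CPM in the long-term libraries, without overlap (log2 difference -1.12, SE 0.243, adjusted p = 0.00353). FAP, fibroblast activation protein, fell by 2.62 and THY1 by 1.86. DLK1, a Notch-related gene of immature stromal and fat-forming cells, had 0 counts in all 5 long-term gel libraries. Against a floor of 3 counts over the group (0.0437 CPM) it was at least 66.8-fold lower than in the short term, where the pooled level was 2.92 CPM.

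Of 7 tenocyte markers, 4 were lower (median -1.83), with keratocan, KERA, falling by 4.82 and tenomodulin, TNMD, by 3.79. Without long-term library 3, the highest for both, the values were -5.54 and -6.48. The 4 defining tendon markers in the files summed to 36.2 to 89.9 CPM in the short-term and 4.11 to 34.3 CPM in the long-term gel libraries. Whether tendon tissue in the samples had a part in the falls of matrix genes was not tested. Adipocyte genes had 1 of 11 members past the threshold and a median of 0.01, which was -0.37 without long-term library 1. That member, the fatty acid carrier FABP4 (-1.30, adjusted p = 0.0291), was no longer past it without short-term library 1, 4 or 5 or long-term library 3, 4 or 5, with adjusted p up to 0.112. ADIPOQ, adiponectin, stood at 68.2 to 274 CPM in the short term and 82 to 213 CPM in the long term (-0.16, adjusted p = 0.755), and PPARG, the regulator of fat cell formation, had a difference of -0.52 (adjusted p = 0.291).

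**Figure D3:**
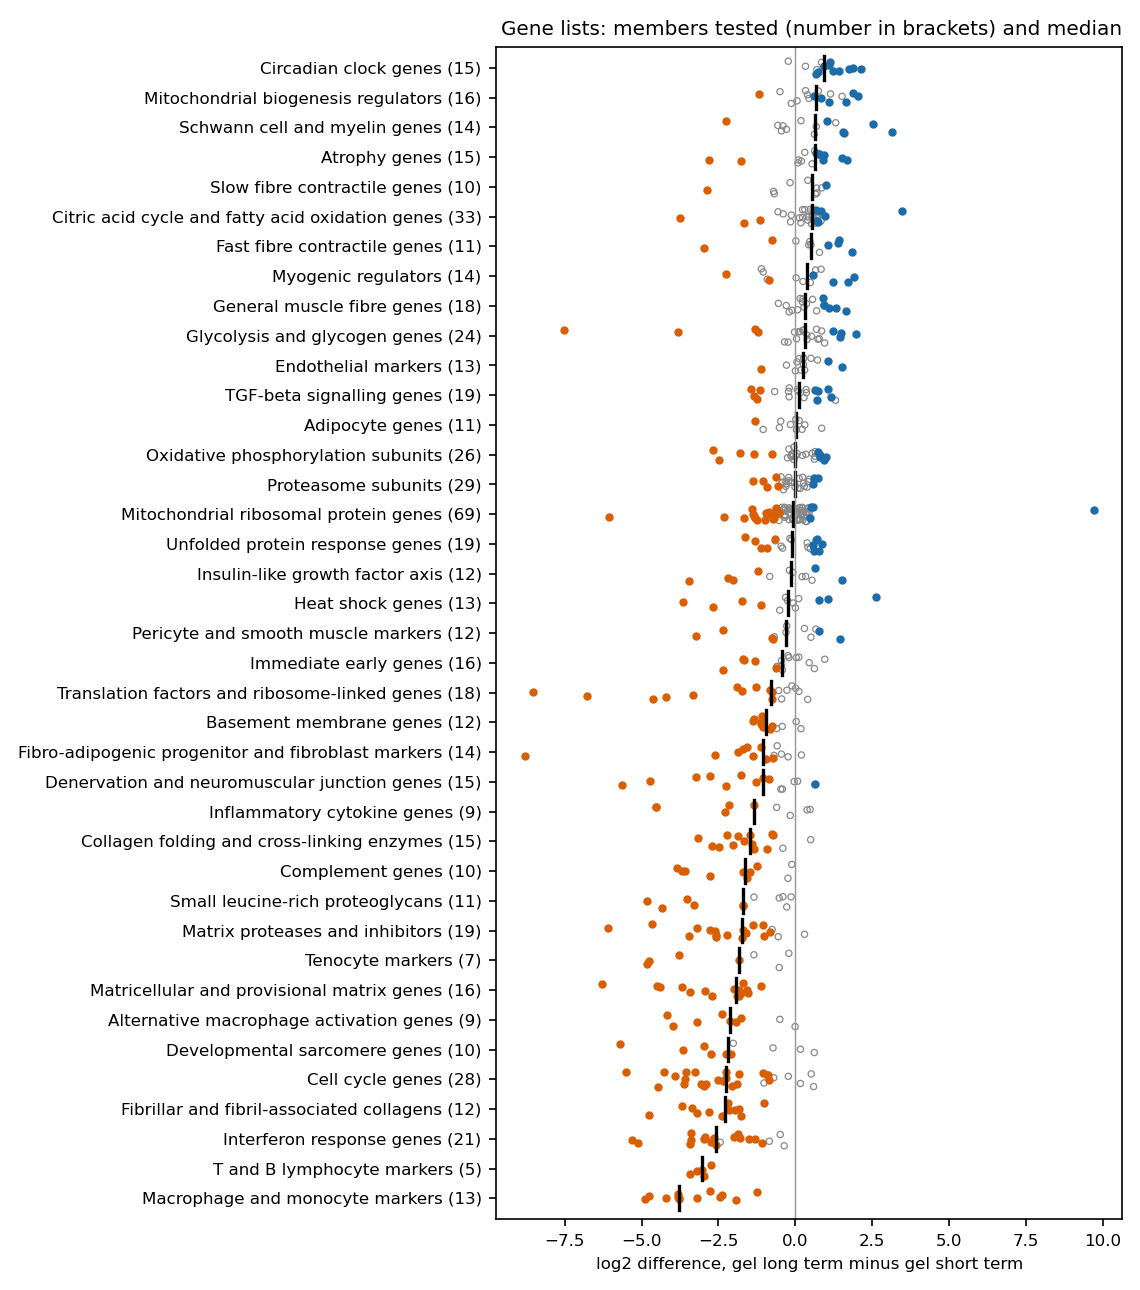
Log2 difference, gel long term minus gel short term, of each tested member of the gene lists with 5 or more members tested (number tested in brackets). Members too low to be tested are not drawn, and some members drawn reached the filter through the short-term libraries, which favours a fall. Filled points passed the threshold (orange lower, blue higher), open points did not, and black bars are list medians. Immune, matrix and cell cycle lists lie mostly to the left, from -3.77 for macrophage markers, and clock genes at the other end, at 0.93.

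Of 14 macrophage and monocyte markers in the files, the 13 that passed the filter on low counts were all lower (median -3.77), and between 11 and 14 were lower when each library was left out in turn. CD68, a lysosomal macrophage protein, stood at 60.2, 20, 60.6, 6.72 and 10.8 CPM in the short-term and at 2.97, 2.2, 2.25, 1.9 and 2.29 CPM in the long-term libraries (log2 difference -3.79, SE 0.598, adjusted p = 0.000542). Short-term libraries 1 and 3 were the highest, 4 and 5 the lowest, and none overlapped the long term. AIF1 fell by 4.91, TYROBP by 4.77, CD14 by 4.20 and CSF1R, the macrophage growth factor receptor, by 2.44. AIF1, at 0.106 to 0.735 CPM in the long term, reached the filter through the short-term libraries, and such a member favours a fall. Macrophage markers summed to 253 to 982 CPM in the short-term and 46 to 102 CPM in the long-term gel libraries, against 43 to 355 CPM after injury only in the short term and 21.9 to 113 CPM in uninjured muscle.

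Genes of alternatively activated macrophages were lower in 7 of 9 cases tested, of 13 in the files. CCL22, at up to 0.245 CPM in the long term, reached the filter through the short-term libraries, and such members favour a fall. All 13 genes in the files summed to 140 to 305 CPM in the short-term and 94.4 to 153 CPM in the long-term gel libraries, with overlap. The scavenger receptor CD163 fell by 2.40, the lectin CD209 by 3.97 and the folate receptor FOLR2 by 3.21. Short-term library 1 was the highest for all 3, and without it the values were -1.76, -2.83 and -2.09. ARG1 was too low to be tested, at 0.366 to 0.739 CPM in the short term and up to 0.163 CPM in the long term. Of 15 lymphocyte markers in the files 5 were tested, and these reached the filter through the short-term libraries, so no count or median is read from them. All 15 summed to 11 to 51.4 CPM in the short-term and 1.9 to 3.24 CPM in the long-term gel libraries. Complement genes fell in 8 of 10 cases tested, of 12 in the files, with C4A, which can share reads with other copies of C4, at -3.69 and CFB at -3.60. Of 15 cytokine genes in the files 9 were tested, and of these 5 fell and 0 rose (1 rose without short-term library 5). CCL2, the monocyte attractant, and CCL5 were both at -4.52. In the long term CCL2 stood at 0.0734 to 0.333 CPM and CCL5 at 0.0791 to 0.654 CPM. Both reached the filter through the short-term libraries, which again favours a fall. All 15 cytokine genes summed to 48.3 to 82 CPM in the short-term and 37.7 to 52.1 CPM in the long-term gel libraries, with overlap. CCL5 had -3.68 without short-term library 3 and -5.42 without long-term library 5.

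Interferon response genes rested more on single libraries. Of 21 tested, 17 were lower and 0 higher (median -2.57), but 11 were lower without short-term library 3. MX1, an antiviral GTPase, stood at 70.7, 195, 436, 27.8 and 45.7 CPM in the short-term and at 19.4, 9.54, 10.3, 10.4 and 24.9 CPM in the long-term libraries (log2 difference -3.40, SE 0.7, adjusted p = 0.00256), or -2.45 without short-term library 3. Short-term libraries 2 and 3 were the high ones, and the lowest short-term value was close to the highest long-term one. ISG15, a ubiquitin-like interferon product, stood at 8.46, 67, 214, 3.89 and 4.46 CPM in the short term and at 0.633 to 2.86 CPM in the long term (-5.33, adjusted p = 0.00379), and had -3.74 without short-term library 3. The acute-phase gene SAA3 (-6.23), the chitinase-like CHI3L1 (-6.02) and the carboxypeptidase-like CPXM1 (-6.18) were also among the 12 largest falls, as were CBS, an enzyme of cysteine synthesis (-5.85), and KCNIP2, a potassium channel partner (-5.37). Without short-term library 3 CPXM1 had -5.59 and CBS -4.51, and without long-term library 1 CBS had -7.15 and KCNIP2 -6.10.

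Cell cycle genes were low in both terms and lower in the long term, with 22 of 28 tested members falling and 0 rising. All 31 in the files summed to 76.8 to 168 CPM in the short-term and 43.1 to 57.3 CPM in the long-term gel libraries. Without long-term library 1, 26 of the members then tested fell and 2 rose, and 1 rose without short-term library 1 or long-term library 5. MKI67, a marker of dividing cells, stood at 9.87, 5.93, 6.14, 7.02 and 2.01 CPM in the short-term libraries, and at 0 to 0.316 CPM in the long term. Its log2 difference was -5.52 (SE 0.583, adjusted p = 6.1e-05), or -6.13 without long-term library 4. The mitotic genes BUB1, CENPF and CCNB1 fell by 4.46, 4.29 and 3.92, with BUB1 at -5.91 without long-term library 3. In the long term BUB1 reached at most 0.249 CPM and CCNB1 at most 0.237 CPM. These 2 genes and MKI67 reached the filter on low counts through the short-term libraries. Such members favour a fall, also in the counts of members given above. For MKI67, BUB1, CENPF and CCNB1 the 2 groups did not overlap, and the short-term library with the lowest value was number 5 each time.

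Genes of immature fibres fell as well, with a strong pull from short-term library 3. Of 10 developmental sarcomere genes tested 6 were lower and 0 higher (median -2.18), and 3 were lower without short-term library 3 or without long-term library 5. MYL4, the embryonic light chain, stood at 72.3, 210, 944, 98.1 and 64.9 CPM in the short-term libraries. In the long term it stood at 25.6 CPM in library 1, 1.88 CPM in library 5 and at most 0.0734 CPM in the other 3, with a log2 difference of -5.70 (SE 1.54, adjusted p = 0.0113). Without library 1 the difference was -9.17 (adjusted p = 0.000614), and without short-term library 3 it was -4.26. ANKRD1, a stress-induced sarcomere gene, fell by 2.98, or 2.35 without short-term library 2. MYH3, embryonic myosin, stood at 168, 846, 3040, 109 and 104 CPM in the short-term and at 130, 212, 257, 166 and 136 CPM in the long-term libraries, so that 3 of the 5 short-term values lay within or below the long-term range. Its difference of -2.27 (adjusted p = 0.0494) was no longer past the threshold without short-term library 2 or 3 or without any 1 of the long-term libraries, with adjusted p up to 0.36, at a difference of -0.71, without short-term library 3.

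Denervation and neuromuscular junction genes were lower in 9 of 15 cases and higher in 1 (median -1.06). Without long-term library 1 the lower count was 12, and without short-term library 3 it was 5. The higher count was 2 without short-term library 4 and 0 without short-term library 5 or long-term library 3. CHRNG, the fetal subunit of the acetylcholine receptor, stood at 98.8, 264, 774, 71 and 90.2 CPM in the short term. In the long term it stood at 19.5 CPM in library 1 and at 0.954, 1.08, 1.19 and 3.92 CPM in libraries 2 to 5, with a log2 difference of -5.64 (SE 1.07, adjusted p = 0.00158). It was -4.55 without short-term library 3 and -7.19 without long-term library 1. RUNX1, a transcription factor induced by denervation, fell by 3.22, or 2.54 without short-term library 3. NCAM1, an adhesion molecule of denervated and regenerating fibres, fell by 2.27. CHRNA1, the alpha subunit, had a difference of -1.29 (adjusted p = 0.0437). That call was lost without any 1 of short-term libraries 1, 3, 4 and 5 and long-term libraries 2 to 5, with adjusted p up to 0.204.

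Among 14 myogenic regulators, 4 were higher and 2 lower (median 0.37), and 6 and 3 without long-term library 1. The lower count was 1 without short-term library 1 or 3 or long-term library 3, 4 or 5. MSTN, myostatin, a brake on muscle growth, stood at 8.74, 15.1, 5.6, 2.76 and 5.18 CPM in the short-term and at 6.47, 44, 27.2, 50.9 and 15.5 CPM in the long-term libraries. Long-term library 1 lay within the short-term range and the other 4 above it, and the log2 difference was 1.92 (SE 0.542, adjusted p = 0.0143). MEF2D rose by 1.71, with all long-term above all short-term libraries of the study, and SIX4 by 1.24. MYOG, the factor of terminal differentiation, had a difference of -0.86 (adjusted p = 0.0227), a call lost without short-term library 1 or 3 or long-term library 3, 4 or 5, with adjusted p up to 0.0943. PAX7, the satellite cell factor, had -0.91 (adjusted p = 0.178). MYOD1, the myoblast factor, had -1.10 (adjusted p = 0.0732), and -1.46 (adjusted p = 0.0214) without long-term library 1. Without short-term library 3 PAX7 had -0.30 and MYOD1 -0.36.

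Contractile genes of adult fibres did not move as a block. Of 11 fast fibre genes 4 were higher and 2 lower (median 0.51), with 1 lower in each fit that left out 1 library. PVALB, parvalbumin, the calcium buffer of fast fibres, stood at 1440, 1620, 411, 836 and 1100 CPM in the short-term and at 5110, 4260, 4220, 4020 and 2170 CPM in the long-term libraries, without overlap (log2 difference 1.85, SE 0.372, adjusted p = 0.00224). ATP2A1, the fast calcium pump, rose by 1.40 and MYBPC2 by 1.42. MYH4, a fast myosin whose reads can be shared with its neighbours in the myosin cluster, fell by 2.99, from 540 to 3920 CPM to 79 to 271 CPM, and had -2.13 without short-term library 3. In injury-only muscle it stood at 1520 to 70300 CPM.

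Of 10 slow fibre genes 1 was higher, the slow troponin TNNT1 (1.00), and 1 lower, the calsequestrin CASQ2. Their median was 0.53, and -0.22 without long-term library 1, and 3 were higher without short-term library 4. CASQ2 stood at 505, 1060, 2120, 816 and 405 CPM in the short-term and at 278, 60.5, 48, 64.9 and 217 CPM in the long-term libraries (log2 difference -2.89, SE 0.613, adjusted p = 0.00304). The groups did not overlap, and long-term libraries 1 and 5 came closest to the short term. Of 18 general fibre genes 6 were higher and 0 lower (median 0.32), and 1 was higher without short-term library 1, 3 without short-term library 3. Without long-term library 1, 5 were higher and 2 lower. RYR1, the calcium release channel, rose by 1.64. Atrophy genes were higher in 7 of 15 cases and lower in 2 (median 0.63). FBXO32, a ubiquitin ligase of wasting muscle, stood at 387, 135, 118, 332 and 615 CPM in the short term and at 521, 959, 1190, 1250 and 654 CPM in the long term. The groups overlapped at 1 library each, and the log2 difference was 1.51 (SE 0.443, adjusted p = 0.0176). TRIM63, the other ligase of that pair, had a difference of 0.11 (adjusted p = 0.776), and -0.085 (adjusted p = 0.762) without long-term library 1.

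Of the 12 largest rises, 9 had all long-term libraries of the study above all short-term ones: MYL10, MYH13, SLC24A2, PAK6, CACNA1C, ATP5I, PDK4, KCNC2 and HBZ. MYL10, a regulatory light chain, stood at 0 to 1.6 CPM in the short term and at 295, 140, 138, 145 and 106 CPM in the long term (log2 difference 8.49, SE 0.913, adjusted p = 6.71e-05), and had 10.19 without short-term library 1. It stood at 36.7 to 170 CPM in uninjured long-term muscle. MYH13, a myosin of the same cluster as MYH4 with the same uncertainty, rose by 4.67. The remaining 3 were CA9, a carbonic anhydrase (3.47, or 4.36 without short-term library 4), the sodium channel subunit SCN4B (3.38) and ABAT, an enzyme of GABA breakdown (3.19).

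Some regulators of oxidative metabolism rose. Of 16 genes of mitochondrial biogenesis 6 were higher and 1 lower (median 0.68), with 9 and 2 without long-term library 1. PPARA, which drives fatty acid use, rose by 1.88, with all long-term libraries above all short-term ones, and ESRRG, an orphan nuclear receptor, by 2.02. TFB2M of the same list fell by 1.18. Of the 16 genes, 2 split all 34 libraries by term, PPARA among them. PPARGC1A, the coactivator PGC-1 alpha, stood at 12.4, 20.6, 8.5, 40.3 and 14.9 CPM in the short term. In the long term it stood at 8.81 CPM in library 1 and at 34.6 to 44.6 CPM in the other 4. Its difference was 0.75 (adjusted p = 0.205), and 1.00 (adjusted p = 0.0461) without library 1 and 1.27 (adjusted p = 0.0278) without short-term library 4.

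Of 26 subunits of oxidative phosphorylation 5 were higher and 5 lower, with a median of -0.015, shares close to the 16.5% and 23.4% over all genes. SDHA and SDHC of complex II rose by 1.01 and 0.79, whereas SDHD of the same complex fell by 2.69 in a step shared by all groups. Genes of the citric acid cycle and of fatty acid oxidation were higher in 6 of 33 cases and lower in 3 (median 0.53). The share higher was close to the 16.5% over all genes, and the share lower was under the 23.4%. The higher count reached 10 without long-term library 1, where 24.6% of all genes were higher, and 12 without short-term library 4. The 3 lower genes were FH (-3.75), HADHB (-1.68) and CS (-1.16). Of the 33 genes, 3 split all 34 libraries by term, PDK4 among them. PDK4, the kinase that shuts pyruvate out of the cycle, stood at 45.2, 35.2, 19.7, 32.2 and 135 CPM in the short-term and at 265, 378, 391, 1010 and 938 CPM in the long-term libraries (log2 difference 3.46, SE 0.573, adjusted p = 0.000714), and had 4.14 without short-term library 5. Of 24 glycolysis and glycogen genes 4 were higher and 4 lower (median 0.32). Here too the share higher was close to the 16.5% and the share lower under the 23.4%. PFKFB3 rose by 1.97, PHKA1, a subunit of phosphorylase kinase, by 1.48 and PFKFB1 by 1.44, while LDHA fell by 1.22. PGK1 (-7.52) and GAPDH (-3.8) fell further. Of the 24 genes, 2 split all 34 libraries by term, PGK1 among them.

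Circadian clock genes had the highest median of the lists with 5 or more members tested, 0.93, with 10 of 15 higher and 0 lower, and 7 to 11 higher when each library was left out in turn. NR1D1, the repressor REV-ERB alpha, stood at 138, 140, 48.3, 135 and 119 CPM in the short term and at 949, 428, 445, 421 and 330 CPM in the long term (log2 difference 2.13, SE 0.361, adjusted p = 0.000806). The groups did not overlap, and long-term library 1 was the highest. BHLHE41 rose by 1.86 and BHLHE40 by 1.75, both repressors of the clock, and the REV-ERB beta gene NR1D2 by 1.42. The time of day of collection is not given in the sources used here.

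Of 14 Schwann cell and myelin genes 5 were higher and 1, NCAM1, lower (median 0.65). The lower count was 2 without long-term library 1, and the median was 1.11 without short-term library 4. SOX10, the glial factor, stood at 0.551, 0.133, 0.228, 0.599 and 0.791 CPM in the short-term and at 9.55, 3.15, 1.91, 2.29 and 3.76 CPM in the long-term libraries, without overlap (log2 difference 3.13, SE 0.561, adjusted p = 0.00111). All 15 list members in the files summed to 210 to 434 CPM in the short-term and 155 to 319 CPM in the long-term gel libraries. That sum thus overlapped and did not rise. The 4 defining Schwann cell markers summed to 6.13 to 45.3 CPM in the short-term and 44.7 to 106 CPM in the long-term gel libraries. After injury only they summed to 27.5 to 74.3 CPM. Whether nerve tissue in the samples had a part in this was not tested. Endothelial markers moved little as a list (2 of 13 higher, 1 lower, median 0.26). The lower count was 0 in 8 of the 10 fits that left out 1 library, all but those without short-term library 2 or long-term library 1. Among the higher ones were the receptors FLT1 and TEK, at 1.52 and 1.07. Of 12 pericyte and smooth muscle markers 2 were higher and 4 lower (median -0.29), and 4 and 6 (median -0.56) without long-term library 1. The median was -0.032 without short-term library 1. The lower count was 2 without short-term library 1 or without long-term library 2, 3, 4 or 5. ACTA2, smooth muscle actin, stood at 134, 283, 1860, 48 and 73.9 CPM in the short term and at 40.2 to 77.2 CPM in the long term (-3.22, adjusted p = 0.0131). Without short-term library 3, by far the highest, its difference was -1.30 (adjusted p = 0.0442).

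Of 19 TGF-beta genes 5 were higher and 4 lower (median 0.11), against 16.5% and 23.4% over all genes, with 8 higher without long-term library 1 and 2 lower without any 1 of short-term libraries 1 to 3 or long-term libraries 2 to 4. The signal transducer SMAD4 rose by 1.06 and the receptor BMPR1A by 1.16, while LTBP1, which holds latent TGF-beta in the matrix, fell by 1.43. TGFB1, the ligand, had a difference of -1.33 (adjusted p = 0.0475). That call was lost without short-term library 1, 2 or 3 or long-term library 2, 3, 4 or 5, with adjusted p up to 0.231, at a difference of -0.67, without short-term library 3. In the insulin-like growth factor axis IGF1 fell by 2.02 and its binding proteins IGFBP2 and IGFBP4 by 3.46 (-2.67 without short-term library 3) and 2.20, while the insulin receptor INSR rose by 1.53, with all long-term libraries of the study above all short-term ones. In all, 4 of 12 genes of this axis fell and 2 rose, with 1 rising in 7 of the 10 fits that left out 1 library (all but those without short-term library 3 or 4 or long-term library 1).

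Counts over the same list members without long-term library 1 were as follows where they have not been given. Over all genes 24.6% were higher and 30.6% lower in that fit. In the matrix, 13 collagen enzymes, 16 matricellular genes, 6 small proteoglycans, 9 basement membrane genes, 17 proteases and inhibitors and 4 tenocyte markers were lower. Among immune genes, 13 macrophage markers, 7 genes of alternative activation, 15 interferon response genes, 5 cytokine genes and 8 complement genes were lower. The limit from the filter given above holds at least for the alternative activation and cytokine counts and, through AIF1, for the macrophage count. In the fibre, 5 developmental sarcomere genes were lower, and 8 atrophy genes were higher and 2 lower. Clock genes had 11 higher and 0 lower, oxidative phosphorylation 6 and 5, glycolysis 5 and 4, endothelial markers 2 and 1 and the insulin-like growth factor axis 2 and 5. The oxidative phosphorylation, glycolysis and endothelial counts lay below the shares over all genes in both directions.

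Whether the term difference itself differed with the gel was tested against the repair-only muscles, which share no library with the gel groups. In those, 4699 of 12186 genes (38.6%) differed between terms, and 2895 genes were called in the same direction in both, which is 59.5% of the gel calls and 61.6% of the repair calls. A single gene was called in opposite directions. The difference between the 2 term differences passed the threshold for 1 of 12945 genes by edgeR (0.00772%), and 1211 (9.35%) had an unadjusted p under 0.05. DESeq2 called 8 genes with a positive and 13 with a negative difference.

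**Figure D4:**
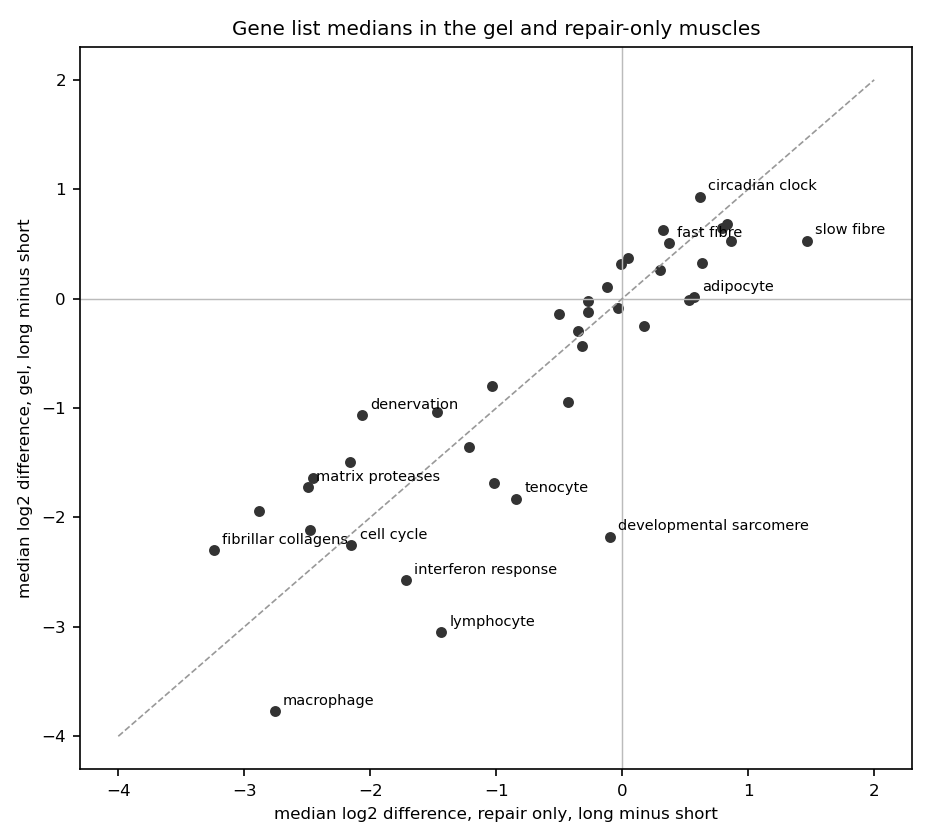
Median log2 difference, long minus short, of each gene list with 5 or more members tested, in gel-treated (vertical) and repair-only muscle (horizontal). The dashed line marks equal values. Developmental sarcomere genes lie at -2.18 with the gel and at -0.10 with repair only, and fibrillar collagens at -2.30 and -3.24.

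The gene called by edgeR was XBP1, which encodes a regulator of protein folding and secretory capacity in the endoplasmic reticulum. It stood at 106, 84, 97.4, 85 and 89.7 CPM in the short-term gel libraries and at 112, 60.2, 54.7, 68.9 and 55.2 CPM in the long-term ones. Repair-only muscles had 122 to 212 CPM in the short term and 27.1 to 35.4 CPM in the long term. The gel libraries thus lay below the repair-only ones in the short term and above them in the long term. The term difference was -0.41 with the gel (adjusted p = 0.156, and -0.64 with adjusted p = 0.00151 without long-term library 1) and -2.29 with repair only (adjusted p = 1.3e-05). The difference between them was 1.90 (SE 0.286, adjusted p = 0.0217), and 1.66 (adjusted p = 0.00264) without gel long-term library 1. It missed the threshold in 11 of the 20 fits that left out 1 library, with adjusted p up to 0.126 and a difference of 1.76 to 1.96 in those fits. These were the fits without repair short-term 1 or 5, gel short-term 1, 2, 3 or 4, repair long-term 1, 2, 3 or 4, or gel long-term 4. Other members of the unfolded protein response moved both ways with the gel, with 6 of 19 higher and 5 lower, 8 and 7 without long-term library 1, or 3 higher without short-term library 5 or without long-term library 2 or 3. ATF4 rose by 0.88 and the disulphide isomerase PDIA3 fell by 1.30.

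No other named gene passed the threshold for that difference. For developmental sarcomere genes the median of the difference was -1.62, and 3 of 10 had a negative difference at an unadjusted p under 0.05, read against the 9.35% of all genes in either direction. Slow fibre genes had 4 of 10 negative (median -1.21), citric acid cycle and fatty acid genes 4 of 33 negative and atrophy genes 4 of 15 positive (median 0.48). Each other list had at most 2 in a direction. MYH3 had -3.68 (SE 1.13, unadjusted p = 0.00405, adjusted p = 0.478): with repair only, its fitted term difference was 1.44 (adjusted p = 0.098). CASQ2 had -3.09 (SE 0.922, adjusted p = 0.478), with 0.219 (adjusted p = 0.804) for repair only. For fibrillar collagens the median of the difference was 0.77, with 0 of 12 genes at an unadjusted p under 0.05.

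**Figure D5:**
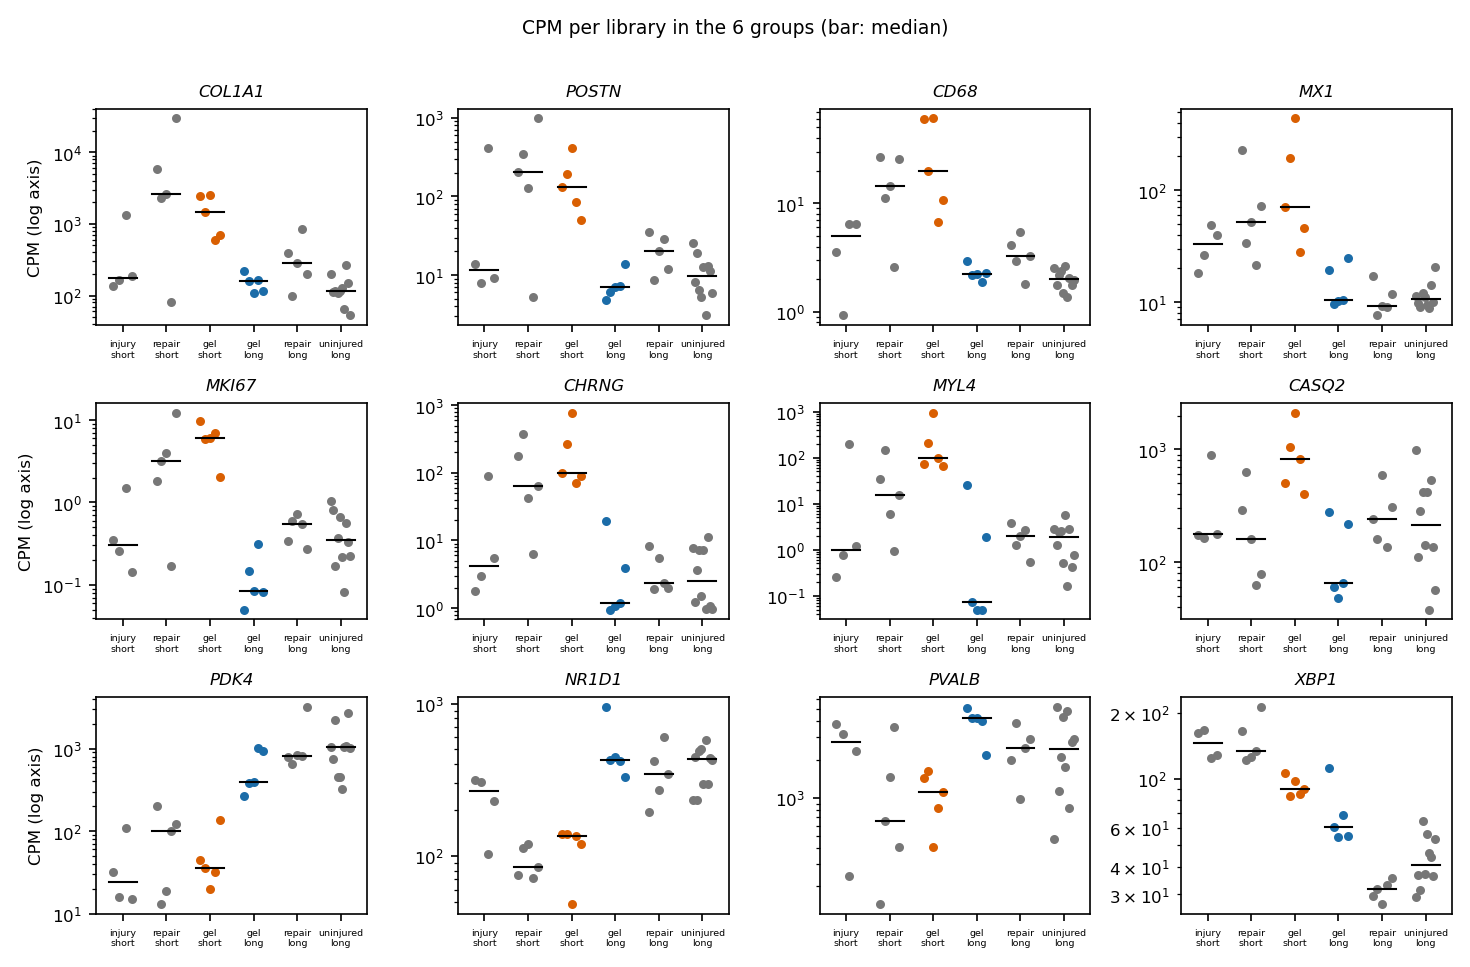
CPM (log axis) of 12 genes in each of the 34 libraries by group, 1 point per library with the group median as a bar, orange for gel short term and blue for gel long term (values under 0.05 CPM are drawn at 0.05). Matrix, immune, cell cycle and fetal receptor genes are lower in the long-term than in the short-term gel libraries, PDK4, NR1D1 and PVALB are higher, and XBP1 overlaps between the 2 gel groups through long-term library 1 at 112 CPM.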

How the data were processed

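Per the labels' protocols, RNA extraction and library construction were done commercially. The authors deposited raw counts per gene, 1 file per library. The submitters' processing notes name STAR, edgeR and OryCun2.0. No version, counting tool, annotation or strand setting is given in the sources used here, so near-identical copies and overlapping genes cannot be separated. Of 18210 entries, 26 had become dates and were dropped (up to 0.163% of a library's counts). Repeated symbols were summed to 18176 genes, 75 of which the name rule removed. Results for some genes are not reported here.

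The 10 gel libraries, or 20 with repair only for the difference between treatments, were fitted with edgeR 4.0.16 in R 4.3.3: TMM factors, filterByExpr, and the robust quasi-likelihood test, 2-sided, with Benjamini-Hochberg adjustment (threshold 0.05). Log2 differences are fitted values, long minus short. Log2 CPM for the components used a prior count of 2. DESeq2 1.42.0, limma 3.58.1 and other filters and library sets served as alternatives. The code was tested on simulated counts.

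Genes named were a panel of 30 (27 in the files, 26 tested), list members (at most 4 for each list and direction) and the 12 largest rises and falls. The last had to carry a symbol, reach a mean log2 CPM of 1, pass with and without long-term library 1 and have no overlap between groups. List members whose call was lost when a library was left out are not given singly, a choice made after seeing values. The comparison, lists and panel were chosen with earlier results of these data known. Lists are described by counts and medians only. With genes at 0 in a whole group set to their bound, no list median changed. Of 20 pairs of libraries within a gel group 0 were identical.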

Additional observations from a re-analysis of the deposited data

Results flagged for a closer look

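In groups of 5, the highest or lowest library was compared with the others by Dixon's test on the log scale, for the genes of the panel, the largest rises and falls and each list's summed CPM. Of 184 groups examined 25 held such a library, where chance gives about 1 in 20, and 16 of the 25 concerned long-term library 1.

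In long-term library 1 the lowest values were SLC24A2 at 12.9 CPM (the others 100 to 129), DCN at 144 CPM (372 to 443), PPARGC1A at 8.81 CPM (34.6 to 44.6), small leucine-rich proteoglycans at a summed 317 CPM (559 to 652) and myogenic regulators at 1840 CPM (2500 to 2780). Its highest values among single genes were CHI3L1 at 0.849 CPM (0.237 to 0.327), ATP5I at 68.6 CPM (24.4 to 31.3), HBZ at 115 CPM (21.3 to 27.7), TGFB1 at 12.3 CPM (3.84 to 4.62) and MYOD1 at 34.4 CPM (13.4 to 15.6). Among list sums its highest were collagen enzymes at 283 CPM, denervation genes at 678 CPM, erythroid genes at 279 CPM, proteasome subunits at 4370 CPM, mitochondrial ribosomal proteins at 2870 CPM and translation factors at 5960 CPM.

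In short-term library 3 the highest values were EEF1A1 at 5920 CPM (1760 to 2060), CACNA1C at 3.67 CPM (2.27 to 2.56), MYOD1 at 95.2 CPM (18.3 to 28.8), CHRNA1 at 116 CPM (35 to 42.4), Schwann cell and myelin genes at a summed 434 CPM (210 to 246) and pericyte and smooth muscle markers at 2450 CPM (690 to 809). The others were SAA3 in long-term library 3, at 0.0832 CPM (0.316 to 0.367), genes of alternative macrophage activation in short-term library 1, at 305 CPM (140 to 171), and the insulin-like growth factor axis in short-term library 2, at 1320 CPM (2090 to 2460).

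The term difference of XBP1 with the gel differed from that with repair only, by 1.90 on the log2 scale in the test of the difference itself.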

How the results depend on the processing

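Without any 1 gel library, 1686 to 3131 genes were higher and 2054 to 3893 lower in the long term, the highest counts without long-term library 1 and the fewest lower genes without short-term library 3. With long-term library 1 already left out these ranges were 2807 to 3175 and 3112 to 3715. Limma voom with sample quality weights gave 3270 higher genes. The other alternatives stayed within 1.5 times the counts of the report. The replicate numbers did not pair the gel libraries: correlations of same-numbered libraries lay between -0.045 and 0.099. With the replicate block, 1604 genes were higher and 2569 lower. For the difference from repair only, 0 or 1 genes were positive and 0 or 1 negative with any 1 library left out. DESeq2 gave 8 and 13, and the fit of all libraries gave 1 negative gene. In each of these cases the cause was not tested.

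Among single genes not past the threshold 2 changed sign. ADIPOQ, at -0.16, had 0.045 with limma voom, 0.092 without short-term replicate 5 and 0.009 without long-term replicate 1 (range without any 1 library -0.368 to 0.092). TRIM63, at 0.11, had -0.122 with limma voom, -0.085 without long-term replicate 1 (range without any 1 library -0.085 to 0.286) and -0.212 without long-term 1 and short-term 3, an alternative chosen after seeing the data. Of the named genes called, 32 lost their call in at least 1 fit without a single library. The long-term libraries' lower depth, 12719599 to 15033385 counts against 27623483 to 31832677, limits what could be detected there for genes near 0.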

Other observations

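Heat shock genes, which the report does not describe, moved both ways, with 3 of 13 higher and 4 lower (median -0.25). Over all genes 16.5% were higher and 23.4% lower. HSPB6, a small heat shock protein of muscle, stood at 1140, 1240, 712, 1580 and 1230 CPM in the short-term gel libraries and at 16400, 4150, 6520, 3890 and 6130 CPM in the long-term ones (log2 difference 2.64, SE 0.427, adjusted p = 0.000628). HSF1, the regulator of the family, rose by 1.07, while HSPA8, which has many near-identical copies, fell by 3.67. HSPB6 and HSPA8 also split all 34 libraries by term.

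For the lists that follow, the shares over all genes were 23.4% lower and 16.5% higher, and 30.6% and 24.6% without long-term library 1. Mitochondrial ribosomal protein genes had 19 of 69 lower and 4 higher (median -0.090), and 28 and 8 without long-term library 1. The higher count fell to 1 without short-term library 1 or 2 and to 2 without short-term library 5 or long-term library 2, 3 or 4. Proteasome subunits had 5 of 29 lower and 3 higher (median -0.025), both under the shares over all genes, and 11 and 6 without long-term library 1. The higher count was 1 without long-term library 2 or 4 and 5 without long-term library 5. Immediate early genes had 5 of 16 lower and 0 higher (1 without short-term library 5), and 3 lower without short-term library 1 or 3 or long-term library 3, 4 or 5. MYC fell by 1.31 and EGR2 by 1.70, or 1.09 without short-term library 3.

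Of 11 neutrophil and mast cell markers in the files 2 were tested, and 1 was lower, the integrin ITGB2 (-3.76), which macrophages also carry. Without long-term library 1, 3 of the members then tested were lower, and 2 without long-term library 2, 3, 4 or 5. Members tested only then can reach the filter through the short-term libraries, which favours a fall, so nothing is read from these counts. All 11 summed to 13 to 46.8 CPM in the short-term and 4.17 to 8.23 CPM in the long-term gel libraries. MPO, CPA3, MS4A2 and HDC had no counts in the long-term gel libraries. The erythroid enzyme gene ALAS2 stood at 0.937 to 4.99 CPM in the short-term libraries and at 3.82 to 6.25 CPM in long-term libraries 2 to 5, with 17.7 CPM in library 1. Its log2 difference was 1.72 (adjusted p = 0.0204), and 2.32 without short-term library 4. Without long-term library 1 it was 1.17 (adjusted p = 0.046). The call was lost without both long-term library 1 and short-term library 3 (adjusted p = 0.0655), an alternative chosen after seeing the data. The 3 cartilage markers in the files summed to 0.341 to 4.74 CPM in the short-term and 7.82 to 15.5 CPM in the long-term gel libraries, and to 4.56 to 15.7 CPM in uninjured long-term muscle.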
